A study of Mus musculus with 6 samples.

Results

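MicroRNA (miRNA) hairpin transcripts were examined in the duodenum of female mice with and without a frameshift allele of Polr3b. The product of Polr3b belongs to RNA polymerase III (Pol III), which makes tRNAs and other short noncoding RNAs. The hairpin transcripts are the rows of a table of short transcripts whose Ensembl identifier has the biotype miRNA in the mouse GENCODE annotation, and there were 217 of them among 1929 rows. Of these, 209 carried a Mir symbol, 5 an unnamed Gm symbol and 3 another name (Snord43, mmu-mir-3535 and mmu-mir-3084-1). Wild-type C57Bl/6N mice were compared with mice heterozygous for the allele C57BL/6N-Polr3b<em7(IMPC)Tcp>/Tcp, with 3 libraries per genotype. The allele is carried in every cell, the other copy of the gene is intact, and experimental animals of the 2 genotypes came from different matings. All mice were fasted overnight before the duodenum was taken and flushed, and their age was not given in the sources used here. RNA under 200 nucleotides was selected and stripped of base methylation before sequencing. Numbers were given to the heterozygous libraries by column order, because only their genotype was known. The Polr3b mRNA is longer than the transcripts of this table, so the genotype labels had no check here.

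A miRNA gene is transcribed as a long precursor, usually by RNA polymerase II. The nuclear enzyme Drosha, with its partner Dgcr8, cuts out a hairpin, and Dicer then trims the hairpin to the short mature miRNA that guides Argonaute to matching mRNAs. Pairing is led by the seed, bases 2 to 8 of the mature strand, so that miRNAs with one seed form a family. In the intestine miR-192, miR-194 and miR-215 are typical of epithelial cells, the miR-200 family of epithelia in general, and miR-143 of the smooth muscle and stroma beneath them. Some annotated hairpins lie inside genes of other small RNAs, such as small nucleolar RNAs (snoRNAs), the related small Cajal body RNAs (scaRNAs) that guide the modification of spliceosomal RNAs, or tRNAs, and reads at such a place can come from either RNA.

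The mature strands of the hairpins that carry the families described here are shown first, from RefSeq on GRCm38.p6, with the seed in capitals. The let-7 strands have a common seed, GAGGUAG, which 11 members carried on a strand listed in RefSeq, more than any other seed. Seeds were counted on listed strands only. The hairpin of Mirlet7a-2 holds the same letters, but only its other strand was listed.
let-7f-5p: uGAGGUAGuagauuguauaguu
let-7c-5p: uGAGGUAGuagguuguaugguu
let-7b-5p: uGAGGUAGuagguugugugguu
let-7d-5p: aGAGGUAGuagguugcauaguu
miR-192-5p: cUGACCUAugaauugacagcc
miR-215-5p: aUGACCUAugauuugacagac
miR-194-5p: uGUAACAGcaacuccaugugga
miR-200b-3p: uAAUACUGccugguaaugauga
miR-200c-3p: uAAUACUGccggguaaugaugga
miR-429-3p: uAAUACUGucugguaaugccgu
The strand of miR-192 lies at chr19:6264857-6264877 on the plus strand and that of miR-215 at chr1:185313610-185313630 on the plus strand (both GRCm38.p6). They share the seed UGACCUA, and an miR-194 hairpin lies close to each of them, Mir194-2 beside Mir192 and Mir194-1 beside Mir215. RefSeq held a hairpin for 179 of the 217 members, with 322 mature strands of 19 to 26 bases and 262 different seeds, 34 of them shared by 2 or more members. The counts belong to whole hairpins, of 58 to 147 bases, and do not tell the strands apart.

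Few of these transcripts held many counts. Of the 217 members, 22 had counts in all 6 libraries and 108 in a single library, and 124 had at most 3 counts over all libraries together. A count of at least 10 over the 6 libraries was reached by 61 members. The column totals ran from 1719869 to 9771623 counts. The number of members with a count was 46, 109 and 91 in wild-type libraries 1 to 3 and 92, 121 and 58 in heterozygous libraries 1 to 3. At the depth of the shallowest library, wild-type library 1, the expected numbers were 46.0, 79.6 and 64.7 in the wild-type libraries, and 44.9, 64.0 and 44.5 in the heterozygous ones, and the genotypes overlapped. For a single member, a count of 0 allowed a level of up to 8.9 normalised counts in wild-type library 1 and up to 1.37 in heterozygous library 2.

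Most of the counts assigned to miRNA hairpins lay on 4 transcripts. All members together made up 0.715%, 0.213% and 0.243% of the counts in wild-type libraries 1 to 3 and 0.251%, 0.0978% and 0.351% in heterozygous libraries 1 to 3, so the genotypes overlapped. The mean was 0.390% ± 0.282 in wild-type and 0.233% ± 0.127 in heterozygous mice (SD, n = 3 each). Mir6236 alone took between 10.4% and 88.4% of the member counts of a library, the lowest in heterozygous library 2 and the highest in wild-type library 1. Snord43, Mir677 and Mir1983 followed. A set of 15 members was viewed apart: the 12 at snoRNA or scaRNA genes, Snord43, Mir1983 with its B box, and Mir6236 for its abundance, all with values already known. The 202 other hairpins, the let-7 and miR-200 families among them, held 2098 of the 72583 member counts and from 0.00372% to 0.0135% of a library. The 95% Wilson interval of the share of all members, which covers counting error only, was 0.702% to 0.727% in wild-type library 1 and 0.0959% to 0.0998% in heterozygous library 2.

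**Figure D1:**
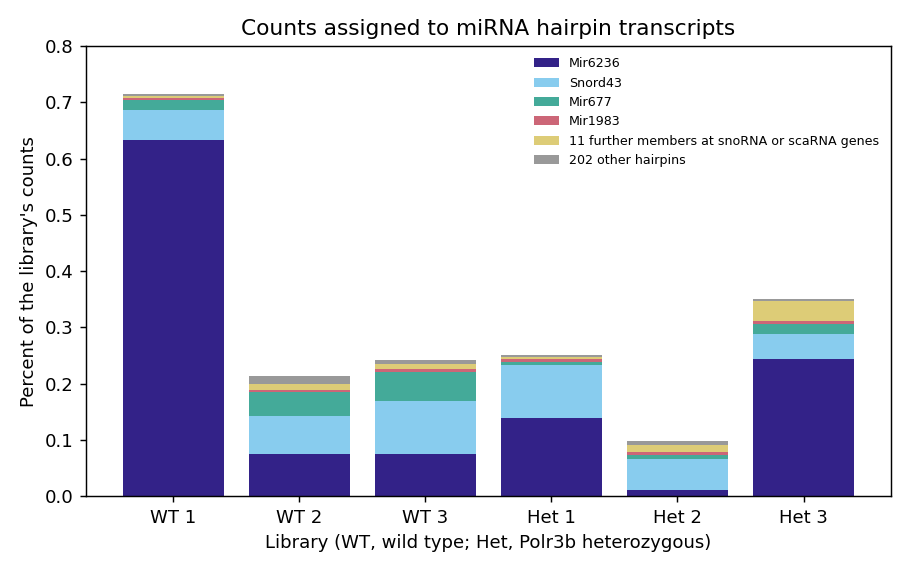
Stacked bars give the percent of each library's counts (y axis) that fell on Mir6236, Snord43, Mir677, Mir1983, 11 further members at snoRNA or scaRNA genes and 202 other hairpins, for 3 wild-type (WT) and 3 heterozygous (Het) libraries. The tallest bar is wild-type library 1 at 0.715%, of which Mir6236 is 0.632%, and the shortest is heterozygous library 2 at 0.0978%.

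Levels below are counts divided by DESeq2's median-of-ratios size factors (normalised counts), and fold changes are heterozygous over wild type from DESeq2's Wald test over all 1929 rows. Of the 217 members, 45 received an adjusted p-value and 1 was called at a false discovery rate of 10%, lower in heterozygotes, against 17 of 734 rows (2.32%) in the whole table and 1.36% called lower. A further 3 members had an unadjusted p-value under 0.05 without passing the adjustment, Mir1983 higher and Mir1291 and Mir223 lower in heterozygotes, and over all rows this level was reached by 52 of 1893 (2.75%). The quasi-likelihood test of edgeR kept 14 members and called 0 of them, with 0 at an unadjusted p-value under 0.05 and a smallest adjusted p-value of 1.0. Over the whole table it called 0 of 577 rows (0%), with an unadjusted p-value under 0.05 for 19 (3.29%). The median log2 fold change was -0.17 over the 217 members and -0.13 over all rows, with 101 members above 0 and 116 below. Among the 18 members with a mean normalised count of at least 10, the genotypes did not overlap in 3 (Mir1983, Mir1291 and Mirlet7c-2), and over all 613 rows at that level they did not overlap in 9.46%.

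**Figure D2:**
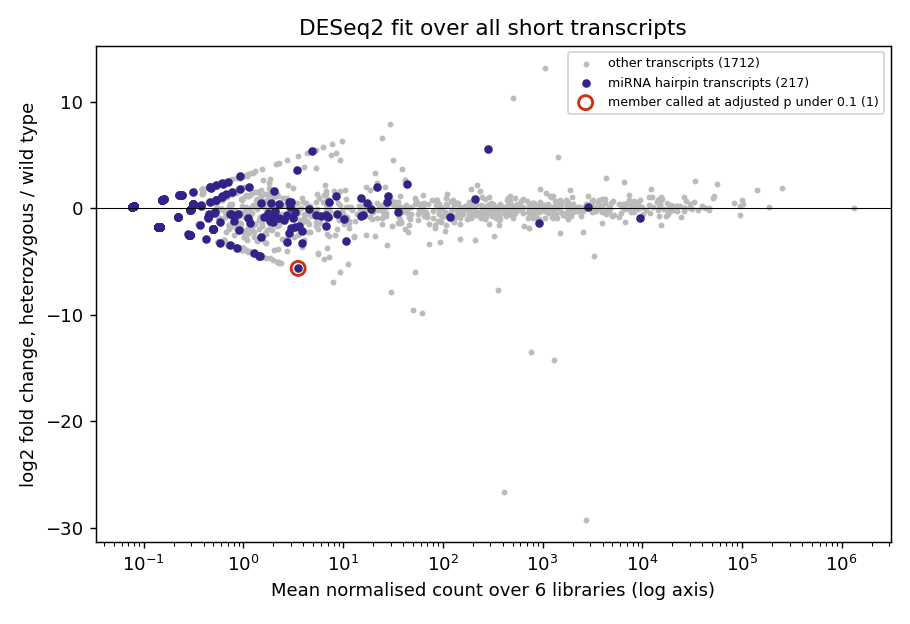
Each point is a transcript, with its mean normalised count over 6 libraries on a log axis (x) and its log2 fold change, heterozygous over wild type (y). The 217 miRNA hairpin transcripts (dark) lie mostly at low counts among the 1712 other transcripts (grey), and the circled point is Gm24572, the only member called.

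The called member, Gm24572, had 4, 4 and 7 counts in the wild-type libraries and 0 in every heterozygous library. The wild-type counts were close to the limit of detection, and the level that a count of 0 allowed in heterozygous library 3, 5.57 normalised counts, was above that of wild-type library 2, at 3.50. The normalised count averaged 7.07 ± 4.32 in wild-type and 0 in heterozygous mice (SD, n = 3 each), and DESeq2 gave an unadjusted p of 0.00221 and an adjusted p of 0.0954. The wild-type mean was 2.53-fold the mean level of 3 counts per heterozygous library. This ratio leaves out the spread between the wild-type libraries and is not a lower limit. The hairpin of Gm24572 has 88 bases and lies in an untranslated exon part of Dgcr8, the gene of the Drosha partner described above, whose own mRNA is known to carry hairpins that the enzyme cuts. The call was absent with TMM factors (DESeq2 adjusted p = 0.13) and with the column total as the scaling (DESeq2 adjusted p = 0.122). It was lost in 5 of the 6 fits with a library left out, at DESeq2 adjusted p-values from 0.401 to 0.999. Without heterozygous library 3 it held, at a DESeq2 adjusted p of 0.0507. Gm24572 did not pass edgeR's filter or a filter of at least 10 counts in at least 3 libraries, so it was not tested there. The share of all rows called was 1.77% at a threshold of 0.05, 1.95% with TMM factors, 1.52% with the column total, 1.23% with a filter of at least 10 counts in at least 3 libraries, 1.99% with near-identical transcripts summed and 2.27% without the filter on outlying counts, and of these settings only the last called a member. Leaving out wild-type library 1, 2 or 3 gave 6.98%, 1.75% and 0.98% of rows called, and leaving out heterozygous library 1 or 2 gave 1.26% and 0.403%, with 0 members called in each of these 5 fits.

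Mir1983 was the only one of the 18 members with a mean normalised count of at least 10 that was higher in every heterozygous library. It had 62, 138 and 173 counts in the wild-type libraries, and 458, 635 and 161 in the heterozygous ones. Its normalised counts were 184, 121 and 144 in wild-type libraries 1 to 3 and 219.8, 289 and 299 in heterozygous libraries 1 to 3, so the genotypes did not overlap. The means were 149.7 ± 32.0 and 269 ± 43.3 (SD, n = 3 each). The log2 fold change was 0.86 (SE 0.42), for which DESeq2 gave an unadjusted p of 0.0430 and an adjusted p of 0.715. With 1 library left out, the log2 fold changes ran from 0.74 to 1.04. Because the genotypes did not overlap, leaving out 1 library could hardly turn their sign. For Mir1983 edgeR gave 0.83 with an unadjusted p of 0.0596. As a share of the library it was 0.00360%, 0.00338% and 0.00466% in the wild-type libraries and 0.00516%, 0.00650% and 0.00523% in heterozygous mice. The genotypes did not overlap on that scale either, although the Wilson intervals of wild-type library 3 (0.00402% to 0.00541%) and heterozygous library 1 (0.00471% to 0.00566%) did. With the column total as the size factor the log2 fold change was 0.54 at an unadjusted DESeq2 p of 0.348.

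The annotated hairpin of Mir1983 is shown because it holds a B box, the internal element by which TFIIIC recruits Pol III to tRNA genes. It lies at chr13:21896918-21897049 on the minus strand (GRCm38.p6, RefSeq), outside other annotated genes, and the B box is in capitals at positions 92 to 100.
Mir1983: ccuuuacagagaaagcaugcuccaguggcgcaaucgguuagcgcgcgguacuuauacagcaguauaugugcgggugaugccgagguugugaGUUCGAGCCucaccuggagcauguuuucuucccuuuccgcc
The motif GTTCGANNC was found on the sense strand of 2 of the 217 members (Mir1983 and Mir434) and of 11 of the 1356 rows with a sequence (0.81%), and on the other strand of 1 member and 4 rows. The variant GTTCAANNC was on the sense strand of 1 member (Mir322) and 12 rows (0.88%), and on the other strand of 2 members and 6 rows. A match is a description of the letters and not of transcription. From background knowledge, the stretch around the B box of Mir1983 has the letters of an isoleucine tRNA gene with its intron, and tRNA sequences were not used here, so how the reads were divided between that tRNA and the hairpin was not tested.

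The members at snoRNA and scaRNA genes were the next group. By annotation, 12 members overlapped such a gene by at least 50% of their length on the same strand, and Snord43, a C/D snoRNA by name, has the biotype miRNA at its position in an intron of Rpl3, the gene of a ribosomal protein. Snord43 had 927, 2805 and 3436 counts in the wild-type libraries, and 8283, 5493 and 1362 in the heterozygous ones. Of the 18 members with a mean normalised count of at least 10 it was the steadiest, with an SD of 0.26 in log2 normalised count over the 6 libraries and with means of 2690 ± 213 in wild-type and 3003 ± 842 in heterozygous mice (SD, n = 3 each). The log2 fold change was 0.16 (SE 0.42, with an adjusted p of 1.0 in DESeq2), and it was -0.15 with the column total as the scaling.

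Mir677, in an intron of Atp5b (a subunit of the mitochondrial ATP synthase) and inside a snoRNA of the same name, had 297, 1705 and 1974 counts in the wild-type libraries, and 484, 597 and 571 in the heterozygous ones. Normalised, these were 882, 1491 and 1646 in the wild-type libraries, and 232, 272 and 1061 in the heterozygous ones. Heterozygous libraries 1 and 2 lay below all wild-type libraries, and heterozygous library 3 lay within their range. The log2 fold change was -1.36 (SE 0.83, with an adjusted p of 0.892 in DESeq2). Without heterozygous library 3 it was -2.41 at a DESeq2 adjusted p of 0.00128.

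Heterozygous libraries 1 and 2 were also the lowest for Mir6516 and Mir1291. Mir6516, at the scaRNA gene Gm26083 within Snhg20, had normalised counts of 77.2, 174 and 200.1 in the wild-type libraries, and 36.5, 44.7 and 173 in the heterozygous ones, with a log2 fold change of -0.85 (SE 0.88, with an adjusted p of 1.0 in DESeq2). Mir1291 lies within Snora34, an H/ACA snoRNA in an intron of Kansl2, and had 6, 20 and 24 counts in the wild-type libraries, and 0, 2 and 4 in the heterozygous ones. Normalised, it was at 17.8, 17.5 and 20.01 in wild-type and at 0, 0.912 and 7.43 in heterozygous mice, so each wild-type library was higher. Its log2 fold change was -3.03 (SE 1.41), for which DESeq2 gave an unadjusted p of 0.0315 and an adjusted p of 0.601, and it was -2.39 without heterozygous library 1. Without heterozygous library 3 both passed the DESeq2 threshold, at log2 fold changes of -1.90 for Mir6516 and -5.31 for Mir1291 and adjusted p-values of 0.0969 and 0.00460. In that fit 4 members were called (Gm24572, Mir677, Mir6516 and Mir1291), all lower in heterozygotes, and 7.74% of all rows were called, 54 of the 68 lower (6.14%). The annotated mature strands of these hairpins have seeds that no family above shares.
miR-677-5p: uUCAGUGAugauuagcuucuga
miR-6516-3p: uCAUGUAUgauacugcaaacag
miR-1291: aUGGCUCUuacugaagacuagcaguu

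**Figure D3:**
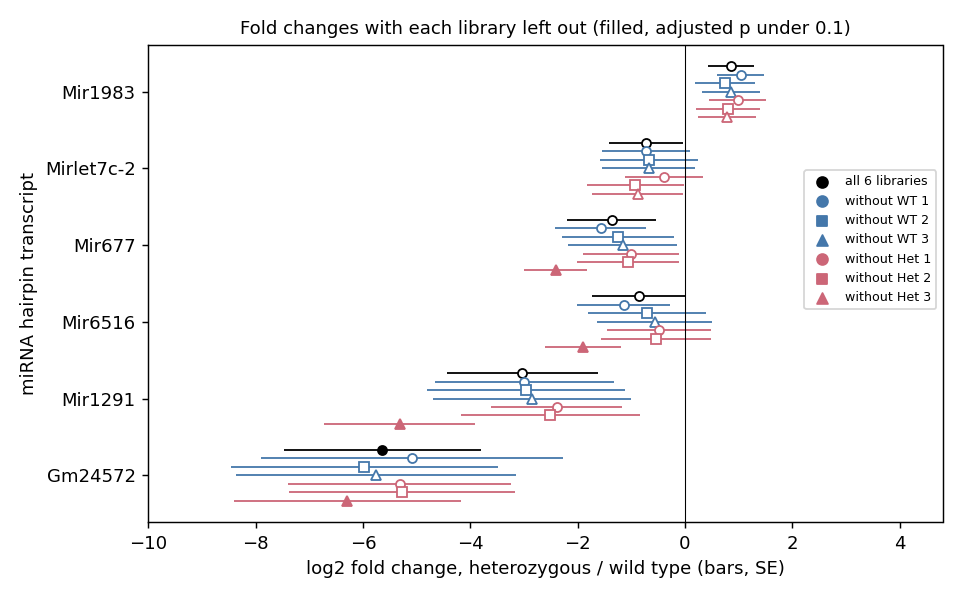
Log2 fold changes, heterozygous over wild type (x axis, bars are SE), are drawn for 6 members with all libraries (black) and with each library left out (blue, a wild-type library; red, a heterozygous library), and filled symbols mark adjusted p-values under 0.1. Mir677, Mir6516 and Mir1291 are filled only without heterozygous library 3, Gm24572 is filled in that fit and with all libraries, and Mir1983 lies between 0.74 and 1.04 throughout.

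In other members of this group the counts moved between single libraries. mmu-mir-3535, at a snoRNA gene in nucleolin (Ncl), had 11, 0 and 3 counts in the wild-type libraries, and 5, 0 and 904 in the heterozygous ones, so heterozygous library 3 held 97.8% of its normalised count. DESeq2's filter on outlying counts gave it no p-value. mmu-mir-3084-1, at Snora19 in Eif3a, had 13, 4 and 6 counts in the wild-type libraries, and 43, 433 and 0 in the heterozygous ones, with heterozygous library 2 holding most of them. Over all 613 rows with a mean normalised count of at least 10, 1 library held at least 75% of the normalised count in 3.75%, and among the 18 members this was so for mmu-mir-3535.

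The scaRNA hairpins Mir1843b and Mir1843a have similar sequences and unlike counts. Mir1843b, at Scarna3a, had 3, 24 and 15 counts in the wild-type libraries, and 27, 65 and 10 in the heterozygous ones, while Mir1843a, at Scarna3b, had 0, 0 and 0 in the wild-type libraries, and 3, 61 and 0 in the heterozygous ones. Mir3068 had normalised counts of 8.90 to 74.3 in wild-type and 0 to 59.3 in heterozygous mice, Mir3069 (at Scarna13) 0 to 26.7 and 3.36 to 68.7, and Mir664 (at Snora36b) 0 to 14.9 and 5.57 to 81.1. Mir1949, at a snoRNA gene, had 0, 65 and 0 counts in the wild-type libraries, and 0, 22 and 15 in the heterozygous ones. The genotypes overlapped in each of these 6, and the DESeq2 adjusted p was 0.799 for Mir1843a and 1.0 for the other 5.

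Mir6236 was the most abundant member per length, at 7807 normalised counts per 100 bases, ahead of Snord43 (2636) and Mir677 (1193), each as the mean of the genotype means. It lies outside other annotated genes, and RefSeq held no hairpin for it. Ribosomal RNA sequences were not used here, so whether its reads came from rRNA was not tested. Its counts were 10870, 3037 and 2815 in the wild-type libraries, and 12399, 997 and 7507 in the heterozygous ones, which gave normalised counts of 32265, 2656 and 2347 in the wild-type libraries, and 5950, 454 and 13943 in the heterozygous ones. Wild-type library 1 was the highest and heterozygous library 2 the lowest, and the genotypes overlapped. The log2 fold change was -0.87 (SE 1.44, with an adjusted p of 1.0 in DESeq2) and became 1.47 without wild-type library 1.

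**Figure D4:**
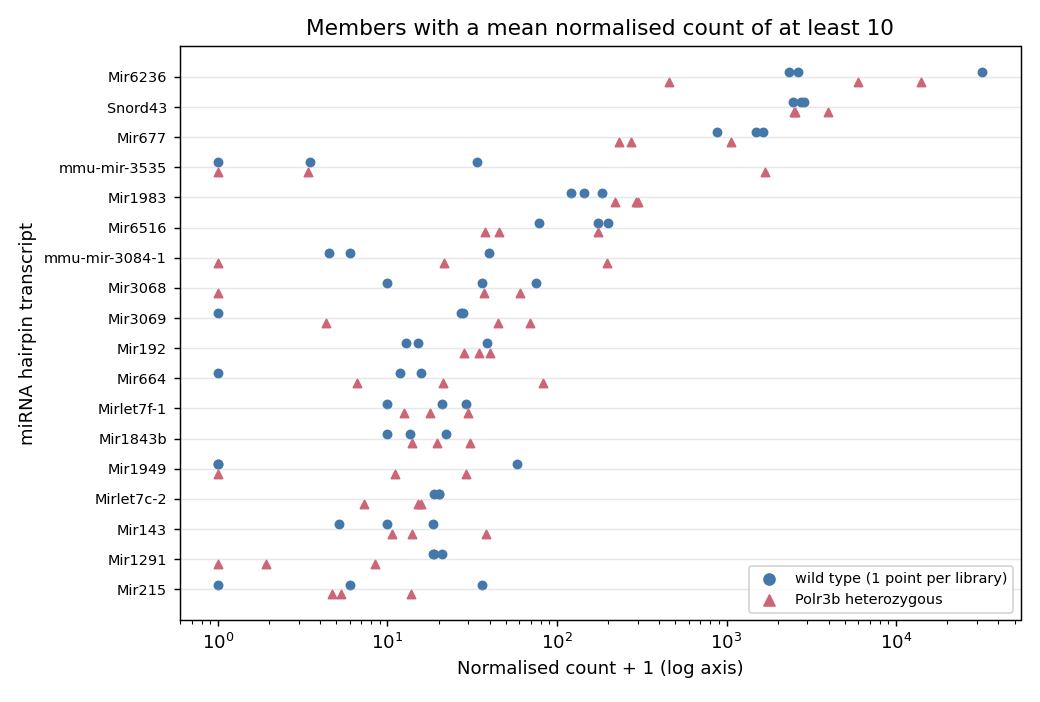
Normalised counts plus 1 (x axis, log scale) of the 18 members with a mean normalised count of at least 10 are drawn, with 1 point per library (blue circles, wild type; red triangles, heterozygous). The points of the 2 genotypes are apart for Mir1983, Mirlet7c-2 and Mir1291 and overlap for the other 15 members.

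Among the 202 other hairpins Mir192 was the most abundant, at 30.7 normalised counts per 100 bases, which ranked it 11 among all members. It had 4, 43 and 17 counts in the wild-type libraries, and 57, 74 and 21 in the heterozygous ones. The normalised count averaged 21.2 ± 14.2 in wild-type and 33.4 ± 5.83 in heterozygous mice (SD, n = 3 each), with a log2 fold change of 0.60 (SE 0.72, with an adjusted p of 1.0 in DESeq2) that became 1.34 without wild-type library 2. Mir215, which has the same seed, had 0, 40 and 6 counts in the wild-type libraries, and 9, 28 and 2 in the heterozygous ones, with a log2 fold change of -0.96 (SE 1.46, with an adjusted p of 1.0 in DESeq2) that became 1.25 without wild-type library 2. Mir194-2 had 0, 22 and 3 counts against 3, 12 and 4, and Mir194-1 had 3, 4 and 3 against 6, 12 and 2. The 4 intestinal epithelial hairpins summed to 20.8, 95.3 and 24.2 normalised counts in the wild-type libraries, and 36.0, 57.4 and 53.9 in the heterozygous ones. Wild-type library 2 was the highest and the other wild-type libraries the lowest, so the genotypes overlapped, and 0 of the 4 were called. Of the 4 log2 fold changes 1 was above 0, that of Mir192, and 3 below, with a median of -0.41. In a tissue sample, a change in the number of cells of a type and a change in its RNA per cell cannot be told apart.

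All 5 miR-200 family hairpins were in the table at low counts. Mir200b had 0, 20 and 1 counts in the wild-type libraries, and 1, 5 and 1 in the heterozygous ones, Mir200c 1, 2 and 3 against 2, 13 and 2, and Mir429 0, 14 and 3 against 3, 0 and 2. The family summed to 5.94, 37.6 and 7.50 normalised counts in the wild-type libraries, and 3.36, 13.2 and 9.29 in the heterozygous ones, again with wild-type library 2 above the rest. Of the 5 log2 fold changes 1 was above 0 and 4 below, with a median of -0.88. None of the 5 was called by DESeq2, whether at an adjusted p-value under 0.1 or at an unadjusted p-value under 0.05, and 0 of them passed the filter of edgeR.

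The let-7 family, known for restraining growth programmes in differentiated cells, had 12 hairpins in the table, 5 of them with counts in every library. Their sum was 50.5, 88.3 and 67.5 normalised counts in the wild-type libraries, and 35.0, 62.0 and 59.4 in the heterozygous ones, and the genotypes overlapped, with a difference of -0.40 on the log2 scale (pooled SD 0.42). The median log2 fold change of the 12 was -0.68, with 3 above 0 and 9 below, and 0 were called by DESeq2. Mirlet7c-2 had 6, 22 and 23 counts in the wild-type libraries, and 13, 31 and 8 in the heterozygous ones. Normalised, it was at 17.8, 19.2 and 19.2 in wild-type and at 6.24, 14.1 and 14.9 in heterozygous mice, lower in all 3 heterozygous libraries, with a log2 fold change of -0.72 (SE 0.69, with an adjusted p of 1.0 in DESeq2). Mirlet7b had 53 counts over the 6 libraries and Mirlet7i 4. Mirlet7f-1, the most abundant of the family, overlapped between the genotypes, at 19.0 ± 9.59 in wild-type and 19.0 ± 8.82 in heterozygous mice (SD, n = 3 each).

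Hairpins of other cell types in the gut wall were few. Mir143, typical of smooth muscle, had 3, 20 and 5 counts in the wild-type libraries, and 20, 81 and 7 in the heterozygous ones, a log2 fold change of 0.97 (SE 0.99, with an adjusted p of 1.0 in DESeq2), while its neighbour in the genome, Mir145a, had at most 3 counts in a library. The log2 fold change of Mir143 was 0.12 without heterozygous library 2 and 1.74 without wild-type library 2. In the smooth muscle and mesenchyme list, 2 of the 5 log2 fold changes were above 0 and 3 below, with a median of -1.79. The 3 below (Mir199a-2, Mir199b and Mir214) had 1 or 2 counts each, all in wild-type library 2. The list sum, mostly Mir143, averaged 11.6 ± 9.16 normalised counts in wild-type and 20.8 ± 15.2 in heterozygous mice (SD, n = 3 each). The genotypes overlapped. Of the haematopoietic hairpins, Mir223, typical of neutrophils, had 1, 17 and 3 counts in the wild-type libraries, and 2, 0 and 1 in the heterozygous ones. Its normalised counts were 2.97, 14.9 and 2.50 against 0.960, 0 and 1.86. Each wild-type value was higher, but that of wild-type library 1 rested on 1 count. A count of 0 allowed up to 8.9 normalised counts there and up to 5.57 in heterozygous library 3. The values of these libraries can therefore not be told apart. With a mean below 10, Mir223 was not among the members examined for overlap above. The log2 fold change was -3.23 (SE 1.64), for which DESeq2 gave an unadjusted p of 0.0480 and an adjusted p of 0.721. Without wild-type library 2, which held 17 of the counts, it was -1.78 at an unadjusted DESeq2 p of 0.413, and without heterozygous library 2 it was -2.45 at 0.146.

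Mir142, typical of blood cells, had 1, 0 and 0 counts in the wild-type libraries, and 6, 33 and 0 in the heterozygous ones, and Mir142b on the opposite strand of the same place had 0, 11 and 5 against 0, 3 and 1. Whether the counting used strand was not given in the sources used here, so these 2 may share reads. The haematopoietic list, with 4 hairpins in the table, summed to 5.94, 24.5 and 7.50 normalised counts in the wild-type libraries, and 4.32, 16.4 and 3.71 in the heterozygous ones, and the genotypes overlapped. Of its 4 log2 fold changes 1 was above 0 and 3 below, with a median of -1.55. Mir375 of endocrine cells had 2, 4 and 1 counts in the wild-type libraries, and 1, 8 and 1 in the heterozygous ones. Mir126a of endothelium had 0, 6 and 3 against 2, 5 and 0.

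Hairpins typical of neighbouring organs were at or near 0. The liver hairpin Mir122 had 1 count, in heterozygous library 1, and those of the exocrine pancreas, Mir216a and Mir217, had 2 counts in all, in wild-type library 1. None of the listed hairpins of striated muscle or neurons was a row of the table. Of the hairpins common to most tissues, 19 were rows. The most abundant was Mir27b, with 2, 23 and 5 counts in the wild-type libraries, and 8, 23 and 4 in the heterozygous ones, and Mir21a had 0, 17 and 2 against 0, 11 and 0. In the miR-17-92 group 8 hairpins were rows and in the miR-29 and miR-30 families 9, with a highest sum of 19 counts in a library, and the 10 listed hairpins of the imprinted Dlk1-Dio3 locus, which is active mainly in embryo and brain, summed to at most 10. Mir300 and Mir493, on the same stretch of chromosome 12 and not on that list, had 1 count each. The Sfmbt2 cluster was represented by Mir467f and Mir466q with 1 count each. In the same lists Mir103-1 had 17 counts over the 6 libraries, Mir17 17, Mir29b-2 22, Mir29c 16 and Mir7-1 18, while Mir20a, Mir93, Mir30c-1, Mir485, Mir434, Mir433, Mir7b and Mir199a-2 had from 1 to 7. DESeq2 called 0 members of these lists.

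**Figure D5:**
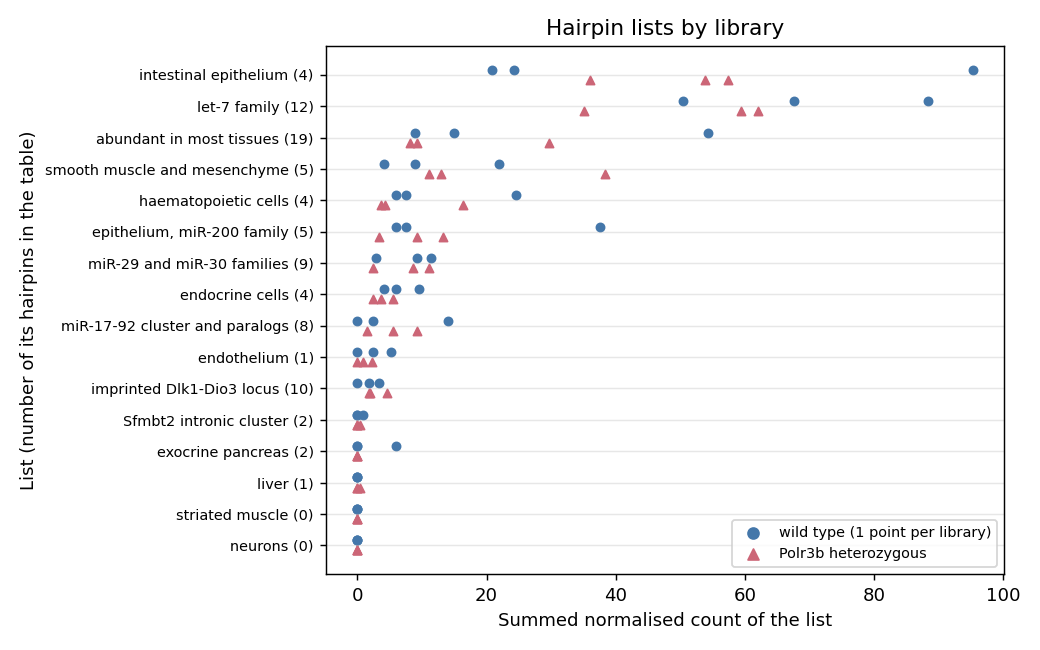
Summed normalised counts (x axis) of 16 hairpin lists (y axis, with the number of hairpins in the table) are drawn, with 1 point per library (blue circles, wild type; red triangles, heterozygous). The intestinal epithelial and let-7 lists are the highest, wild-type library 2 gives the rightmost point of several lists, and the genotypes overlap in each of the 6 plotted lists whose mean sum is at least 10.

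By position in the annotation, 78 members were in introns and 39 in exons of protein-coding genes, 13 in introns and 36 in exons of long noncoding RNAs or pseudogenes, and 51 outside other genes. The hairpins in exons include Mir27b and Mir21a, in untranslated parts of 2010111I01Rik and Vmp1, and Gm26377, in an untranslated part of Eef1a1, the translation elongation factor. Gm26377 had 2, 5 and 25 counts in the wild-type libraries, and 11, 8 and 0 in the heterozygous ones, with a log2 fold change of -1.70 (SE 1.25, with an adjusted p of 1.0 in DESeq2). The 5 hairpins with a Gm symbol summed to 17.8, 7.87 and 26.7 normalised counts in the wild-type libraries. The heterozygous sums were 7.20, 4.56 and 0, each below every wild-type sum. Most of this came from Gm26377 and the called Gm24572, so the separation is not independent of that call. Before scaling, the sums were 6, 9 and 32 counts against 15, 10 and 0. Of the 5 log2 fold changes 3 were above 0 and 2 below, with a median of 0.18. Separately, 16 members had a miRNA gene on the opposite strand, and 22 were at least 80% identical over at least 80% of their length to another member, so that their single values are uncertain.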

How the data were processed

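Duodenum RNA of female mice was used, in 6 libraries, 3 per genotype. Per the study's methods and labels, the authors used Cutadapt for trimming, Salmon with an index of all mouse RNAs (GRCm39) for quantification, and tximport for sequences under 300 bases. What they deposited are estimated counts, stored as whole numbers, per transcript and library. Reads that fit several similar sequences are shared out by Salmon's model. Mature miRNAs are shorter than the hairpins counted, and the k-mer length of the index was not given in the sources used here.

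Identifiers were matched to GENCODE vM21 (GRCm38) without their version, since none of the members has the same version there. Of 1742 Ensembl rows 386 had no match and may hold further miRNAs. Heterozygous columns are headed with another Pol III subunit and were assigned as the only other group of the series. Nothing in the labels says that the libraries of a genotype came from separate mice, so p-values measure the spread between these libraries, and no batch was given.

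DESeq2 1.42.0 (Wald test, genotype as term, adjusted p under 0.1) in R 4.3.3 was fitted to all rows, with edgeR 4.0.16 as alternative. Both were run on simulated counts with large changes and a fixed spread, as a check of the code. That run does not measure their power for members with few counts. Other scalings, a count filter, summed near-identical transcripts and leaving out each library were tried. Intervals are from scipy 1.17.1. Likeness between sequences came from BLAST. The members and lists were chosen with earlier results of these data known. Named were called members, the 15 most abundant per length, those with the smallest p-values or without overlap, the top 3 of each of 17 lists, and those resting on 1 library or steadiest. Others named were chosen after their values were seen.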

Additional observations from a re-analysis of the deposited data

How the results depend on the processing

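The number of miRNA hairpins called (1 in DESeq2) was 0 with TMM factors, the column total, at least 10 counts in at least 3 libraries, edgeR, near-identical transcripts summed, a threshold of 0.05 or Mir symbols only. Gm24572 did not pass the count filter or the filter of edgeR and has no Mir symbol, so those settings could not have called it. The number called ran from 0 to 4 when 1 library was left out, with 4 without heterozygous library 3. The median log2 fold change (-0.17) was -0.47 with the column total (-0.45 over all rows), 0.16 with the count filter, 0.039 in edgeR, -0.31 for Mir symbols and -0.32 outside other small RNAs (chosen after seeing the data), and from -1.11 (without heterozygous library 2) to 0.0085 (without wild-type library 1) with 1 library left out. The count filter and edgeR kept only part of the members (14 in edgeR), so their medians cover other members than the -0.17. Fits with 1 library left out also lack members without a count in the remaining libraries. Medians over all rows are not given here for most settings, so a shift of the members alone is not shown. Snord43 turned to -0.15 with the column total. Single libraries turned the sign of Snord43 (-0.094 to 0.28), Mir6236 (-1.93 to 1.47), mmu-mir-3535 (-3.22 to 8.83), mmu-mir-3084-1 (-0.49 to 4.10), Mir3068 (-1.11 to 0.54), Mir1949 (-1.94 to 5.46), Mirlet7f-1 (-0.50 to 0.36) and Mir215 (-1.76 to 1.25). The cause was not tested. The log2 difference in the share of all members stayed below 0 in every setting tried. With 1 library left out, on shares of the column total, it ran from -1.09 (without heterozygous library 3) to -0.15 (without wild-type library 1). Leaving out a library was not tried on the normalised counts, so the direction on that scale was not tested in this way. The pooled SD of this log2 share was 0.96, and the genotypes overlapped. No paired analysis was possible because the sample titles of the heterozygotes carry no replicate numbers, and the number that ends a column head does not tie different animals together. Depth limits most members, since 124 of 217 had at most 3 counts in all.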

Other observations

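Of the further members given here, Mir802, Mir345 and Mir3074-1 were chosen after their values were seen. Mir802, a hairpin of epithelial and islet tissues, had 3, 13 and 5 counts in the wild-type libraries, against 21, 4 and 2 in the heterozygous ones. Mir345 had 2, 5 and 7 counts against 11, 43 and 5, and Mir3074-1, on the strand opposite Mir24-1, had 0, 7 and 3 against 0, 0 and 0. Mir31, named by the rule for members resting on 1 library, had 10 counts, all in wild-type library 2. In 115 of the 217 members 1 library held at least 75% of the normalised count. This holds by itself for the 108 members with counts in a single library. The share over all rows was computed only at a mean of at least 10. There it was 3.75% of 613 rows, against 1 of the 18 members. DESeq2 called none of Mir802, Mir345, Mir3074-1 and Mir31.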
